A study of Homo sapiens with 2 samples.

Results

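Rb peaks were examined at the start sites of 10 genes that copy and maintain chromatin: DNMT1, UHRF1, HELLS, CDCA7, EZH2, SUZ12, CHAF1A, CHAF1B, ASF1B and HMGB2. A peak belonged to a gene when its summit lay within 3 kb of the gene's start site in the human genome build hg19. This gave 12 of 21994 peaks in LNCaP and 10 of 9423 peaks in VCaP. The data are chromatin immunoprecipitation and sequencing (ChIP-seq) of Rb, the retinoblastoma protein, in these prostate cancer cell lines. LNCaP and VCaP cells, at passage 10 to 15, both spent 3 days in 5% charcoal-stripped serum. Both were then exposed for 4 h to DHT (dihydrotestosterone, an androgen) at 10 nM, and Rb was precipitated with a mouse monoclonal antibody. Each line has 1 library, so that the spread between cultures is not known and no test between the lines can be made. Cells without DHT and input chromatin were not analysed here.

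LNCaP and VCaP were both derived from metastases of prostate cancer and both express the androgen receptor. Peak positions hold no expression, so the cell type labels could not be checked against marker genes. Rb restrains the cell cycle largely by binding E2F transcription factors at the promoters of genes used for DNA replication. When DNA is copied, histones have to be placed on both daughter strands and DNA methylation has to be copied onto the new strand. The genes described here encode proteins that do this work or act beside it, and many of them are known as E2F targets.

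The libraries differed in depth and in the length of their peak lists. After filtering, LNCaP had 3671482 tags and VCaP 8691938. The authors' peak caller gave each peak a pileup, the number of extended tags over the summit, and a fold enrichment, the pileup over the local background of the same library. Both are the authors' own values per peak. Over all LNCaP peaks fold enrichment had a median of 6.00, with quartiles of 4.99 and 7.59. Over all VCaP peaks its median was 5.51, with quartiles of 4.83 and 6.45. Pileup had a median of 13 tags in each list.

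Promoter sequences are shown for the 4 genes whose peaks ranked best in both lists, judged by the worse of their ranks. They come from RefSeq (build GRCh38.p14) and run 5′ to 3′ along the transcribed strand, from 250 bases before the RefSeq start to 30 bases from it. CDCA7 is at chr2:173354622-173354901 (plus strand), DNMT1 at chr19:10194924-10195203 (minus), EZH2 at chr7:148884262-148884541 (minus) and CHAF1B at chr21:36385142-36385421 (plus). For EZH2 the start furthest upstream was taken. Capitals mark matches on either strand to the E2F-type words TTTCCCGC, TTTGGCGC, TTTCGCGC and TTTGCCGC, to the shorter E2F core TTCCCGC, to CCAAT, the box read by NF-Y, and to TTTGAA and TTCGAA, the CHR words of cell cycle genes.
CDCA7: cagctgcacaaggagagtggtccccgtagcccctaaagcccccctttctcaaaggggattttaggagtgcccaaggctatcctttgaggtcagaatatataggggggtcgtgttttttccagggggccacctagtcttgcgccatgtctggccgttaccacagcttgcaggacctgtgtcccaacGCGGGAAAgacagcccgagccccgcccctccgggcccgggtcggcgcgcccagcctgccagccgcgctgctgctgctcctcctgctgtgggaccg
DNMT1: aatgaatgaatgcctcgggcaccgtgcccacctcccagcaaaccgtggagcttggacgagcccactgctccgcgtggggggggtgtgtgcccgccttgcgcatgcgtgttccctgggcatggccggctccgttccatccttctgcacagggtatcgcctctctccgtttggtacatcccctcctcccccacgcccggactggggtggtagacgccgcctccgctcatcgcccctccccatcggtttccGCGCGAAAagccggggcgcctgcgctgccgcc
EZH2: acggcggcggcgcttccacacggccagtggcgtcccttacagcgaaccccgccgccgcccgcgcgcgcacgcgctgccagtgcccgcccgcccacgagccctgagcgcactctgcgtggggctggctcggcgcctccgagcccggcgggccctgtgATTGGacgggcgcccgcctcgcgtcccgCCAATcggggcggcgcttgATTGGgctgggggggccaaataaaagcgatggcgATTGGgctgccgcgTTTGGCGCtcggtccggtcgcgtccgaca
CHAF1B: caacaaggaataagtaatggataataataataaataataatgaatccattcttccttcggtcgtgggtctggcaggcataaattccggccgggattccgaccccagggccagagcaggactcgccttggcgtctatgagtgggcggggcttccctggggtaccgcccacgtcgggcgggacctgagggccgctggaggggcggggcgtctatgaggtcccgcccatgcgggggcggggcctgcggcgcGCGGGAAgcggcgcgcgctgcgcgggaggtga

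In CDCA7 the capitals are GCGGGAAA, the reverse complement of TTTCCCGC, whose first base lies 65 bases before the RefSeq start. The DNMT1 window carried GCGCGAAA, the reverse complement of TTTCGCGC, across the start, and CHAF1B carried the core as GCGGGAA at the same place. EZH2 had 4 CCAAT boxes, 3 of them as ATTGG, in the 94 bases before the start, followed by TTTGGCGC from the base after it.

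Of the 10 genes, 9 had an entry in the RefSeq promoter table, of 35116 entries. EZH2 and UHRF1 had more than 1 entry, and only the one with the start furthest upstream was counted for each. Shares of the table are over all its entries, further starts included. The 4 E2F-type words, searched on both strands of the full windows of 300 bases, were held by 6 of the 9: CDCA7, DNMT1, EZH2, HELLS, SUZ12 and UHRF1. Of all promoters in the table, 3.31% held at least 1 of them. TTTCCCGC contains the core TTCCCGC. With the core included, 8 of the 9 had a match, against 8.08% of all promoters. ASF1B was the exception, and its window held 3 CCAAT boxes and the CHR word TTTGAA. The CCAAT box was found in 6 of 9, against 34.6% of all promoters, and a CHR word in 2 of 9 (ASF1B and SUZ12), against 16.4%. The windows of these 9 genes were rich in G and C, with a median of 68.3% against 58.7% over the table. A match is a description of the letters and not a mapped site. The RefSeq starts were not placed in hg19, so that words and peak summits cannot be laid over each other base by base.

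All 10 start sites carried an Rb peak in both lines, and the peak in LNCaP overlapped that in VCaP at each of them. The genes and start sites were chosen with earlier results of these data known, so that this count is no test of the gene class. Positions within 3 kb of a summit make up 4.37% of the effective genome in LNCaP and 1.96% in VCaP. That is no background for promoters, which could not be counted without an hg19 annotation. Of all peaks, 30.2% in LNCaP and 71.0% in VCaP overlapped a peak of the other line. Among VCaP peaks with at least the lowest fold of these genes, 80.1% did.

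These peaks lay high in their own lists. The median fold enrichment over the 10 genes, taking the higher peak where there were 2, was 12.5 in LNCaP and 8.78 in VCaP. All 10 lay above the median of the list in each line, HMGB2 and UHRF1 in VCaP only just, with 5.54 and 5.59 against 5.51. At a fold of at least 10 there were 9 genes in LNCaP, where 8.01% of all peaks reach it, and 5 in VCaP, where 3.33% do. The 5 in VCaP were CDCA7, DNMT1, CHAF1B, EZH2 and ASF1B. In LNCaP only HMGB2 stayed below. By fold, CDCA7, DNMT1, CHAF1B, EZH2 and ASF1B were the 5 highest in LNCaP as well. CDCA7 came first in each line, UHRF1 next to last and HMGB2 last. By pileup HMGB2 was last in LNCaP but not in VCaP.

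**Figure D1:**
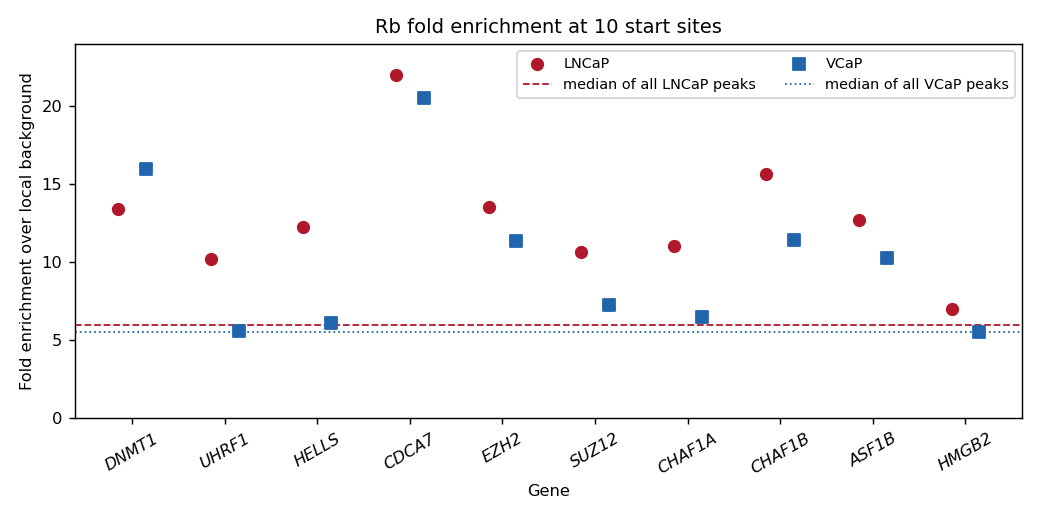
Fold enrichment over local background (vertical axis) at the start sites of the 10 genes, grouped by role, in LNCaP (circles) and VCaP (squares), with 1 library per line; dashed and dotted lines mark the medians of all peaks. CDCA7 reached 22.0 in LNCaP and 20.6 in VCaP, and DNMT1 was the gene with the lower value in LNCaP.

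Among the genes that maintain DNA methylation, CDCA7 had the highest peak of the set. CDCA7 binds DNA and recruits the remodeller HELLS, and loss of either causes an immunodeficiency with lost methylation near centromeres. The CDCA7 peak lay at chr2:174219252-174219778 in LNCaP and at chr2:174219267-174219694 in VCaP. Its pileup was 99 tags in LNCaP (exact 95% Poisson interval 80.5 to 121) and 82 tags in VCaP (65.2 to 102). Fold enrichment was 22.0 in LNCaP and 20.6 in VCaP, rank 4 of the whole list in each and rank 1 on chromosome 2. These intervals cover counting error only, here and for all other pileups. No other peak lay near it. The nearest other summit was 278485 bp away in LNCaP and 144461 bp away in VCaP, and none of the other 9 genes was as far from its next peak. HELLS came close to this in VCaP, with 143526 bp, but not in LNCaP, with 60040 bp.

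HELLS, the ATP-driven remodeller that opens chromatin for DNA methylation, was unequal between the lines. Its peak was at chr10:96305190-96305827 in LNCaP and chr10:96305522-96305750 in VCaP. The pileup was 37 tags in LNCaP (26.1 to 51.0) and 13 tags in VCaP (6.92 to 22.2), from the deeper library. Fold enrichment was 12.3 in LNCaP, rank 566, and 6.13 in VCaP, rank 2968. The ratio of LNCaP over VCaP, 2.001, was the highest of the 10 genes, and 7.99% of all overlapping pairs had a ratio at least as high. Summits were 16 bp apart, at 14 bp behind the start in LNCaP and 2 bp before it in VCaP.

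DNMT1, the enzyme that copies methylation onto newly made DNA, was the gene with the lower fold enrichment in LNCaP. The peak covered chr19:10304906-10305840 in LNCaP and chr19:10305086-10305679 in VCaP, with the summit on the same base, 462 bp into the gene. Its pileup was 86 tags in LNCaP (68.8 to 106) and 56 tags in VCaP (42.3 to 72.7). Fold enrichment was 13.4 in LNCaP, rank 351, and 16.0 in VCaP, rank 30. The order of the lines depends on the measure: pileup per 1000000 tags was 23.4 in LNCaP and 6.44 in VCaP. Beside this, the window of 10000 bp that gives the background held 228 tags in LNCaP and 114 in VCaP. Per 1000000 tags that is 62.1 in LNCaP and 13.1 in VCaP, and its part in the lower fold was not tested.

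UHRF1, which recognises DNA methylated on only the parental strand and brings in DNMT1, had a strong peak in LNCaP and one near the list median in VCaP. The peak lay at chr19:4909296-4910337 in LNCaP and chr19:4909255-4909965 in VCaP. LNCaP had 47 tags over the summit (34.5 to 62.5) and VCaP 12 (6.20 to 21.0), the lowest pileup of the set. Fold enrichment was 10.2 in LNCaP, rank 1547, and 5.59 in VCaP, rank 4459 of 9423. The summits were 498 bp apart, the widest gap of the 10 genes. LNCaP had its summit 404 bp behind the start, and VCaP 94 bp before it. RefSeq lists further UHRF1 starts 643 and 866 bases behind the first in GRCh38, which were not placed in hg19.

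Both genes of the set that belong to Polycomb repressive complex 2, which methylates histone H3 at lysine 27, had Rb peaks in both lines. EZH2, the catalytic subunit, was the more enriched. Its peak was at chr7:148581174-148582066 in LNCaP and chr7:148581346-148582027 in VCaP, with summits 357 and 327 bp before the start. The EZH2 pileup was 83 tags in LNCaP (66.1 to 103) and 49 tags in VCaP (36.3 to 64.8). Fold enrichment was 13.5 in LNCaP, rank 327, and 11.4 in VCaP, rank 193.

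SUZ12, a core subunit that the enzyme needs for its activity, had a lower fold than EZH2 in each line. Its peak lay at chr17:30263737-30264277 in LNCaP and chr17:30263627-30264239 in VCaP. The pileup was 30 tags in LNCaP (20.2 to 42.8) and 29 tags in VCaP (19.4 to 41.6), nearly equal counts from libraries of unequal depth. SUZ12 had a fold enrichment of 10.7 in LNCaP, rank 1228, and 7.27 in VCaP, rank 1308. The intervals of the EZH2 and SUZ12 pileups did not overlap in LNCaP and overlapped in VCaP, which is no test of a difference between the genes.

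All 3 histone chaperone genes of the set had peaks in both lines. Their folds ran from 11.0 to 15.7 in LNCaP and from 6.46 to 11.4 in VCaP. CHAF1A and CHAF1B are the large and the middle subunit of chromatin assembly factor 1, which deposits histones H3 and H4 behind the replication fork. CHAF1B was at chr21:37757508-37757949 in LNCaP and chr21:37757480-37757934 in VCaP. It had 46 tags in LNCaP (33.7 to 61.4) and 41 tags in VCaP (29.4 to 55.6). Fold enrichment was 15.7 in LNCaP, rank 118 of the list and 2 of 280 on chromosome 21, and 11.4 in VCaP, rank 190 of the list and 3 of 188 on that chromosome.

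CHAF1A had a lower fold than its partner in each line. The peak at its start lay at chr19:4402415-4402889 in LNCaP and chr19:4402439-4402828 in VCaP, with summits 9 bp behind and 13 bp before the start. LNCaP had 55 tags (41.4 to 71.6) and VCaP 20 (12.2 to 30.9). By pileup CHAF1A was above CHAF1B in LNCaP, where CHAF1B had 46 tags, and below it in VCaP, where CHAF1B had 41. Fold enrichment was 11.0 in LNCaP, rank 1021, and 6.46 in VCaP, rank 2326. LNCaP had a second peak 2227 bp before the start, at chr19:4400247-4400700, with 22 tags (13.8 to 33.3) and a fold of 4.49, rank 19267. RefSeq places SH3GL1, on the opposite strand, as the neighbour on that side, and to which start the second peak belongs was not tested.

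ASF1B, which hands H3 and H4 to chromatin assembly factor 1, had broad peaks, the second longest of the set in LNCaP after UHRF1 and the longest in VCaP. They covered chr19:14247281-14248314 in LNCaP, 1034 bp, and chr19:14247290-14248202 in VCaP, 913 bp. The pileup was 74 tags in LNCaP (58.1 to 92.9) and 38 tags in VCaP (26.9 to 52.2). Fold enrichment was 12.7 in LNCaP, rank 458, and 10.3 in VCaP, rank 276. Summits lay 196 bp behind the start in LNCaP and 154 bp behind it in VCaP.

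HMGB2, a protein that bends DNA and is most abundant in dividing cells, had the lowest fold of the set in each line. In LNCaP its higher peak was at chr4:174255489-174256332 and a second one at chr4:174254689-174255144, 712 bp into the gene. VCaP had 1 peak, at chr4:174255721-174256260. The pileup was 25 tags (16.2 to 36.9) at the higher LNCaP peak, 24 tags (15.4 to 35.7) at the second, and 25 tags in VCaP. Fold enrichment was 7.03 and 6.67 in LNCaP, ranks 6982 and 8201, and 5.54 in VCaP, rank 4539. In LNCaP 31.7% of all peaks were at least as enriched as the higher HMGB2 peak, and in VCaP 48.2% were. HMGB2 has no sequence shown, as it had no entry in the promoter table.

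The peaks sat on the start sites. Every best peak had its summit within 500 bp of the start in both lines, at a median distance of 79.5 bp in LNCaP and 120 bp in VCaP. The start itself lay inside the peak for 10 genes in LNCaP and for 8 in VCaP, where DNMT1 and HMGB2 were the exceptions. Of the LNCaP summits, 4 lay before the start and 6 behind it, and of the VCaP summits 7 and 3. DNMT1, ASF1B and CHAF1B had the summit inside the gene in both lines, and EZH2, CDCA7, SUZ12 and HMGB2 before the start in both. For HMGB2, directions in these counts and elsewhere assume the minus strand, which is textbook knowledge and not given by the tables used here. The farthest summit inside it was that of the second CHAF1A peak at 2227 bp, and the nearest one outside was 19057 bp from ASF1B in LNCaP, with a fold of 6.90. In VCaP the farthest inside was at 462 bp and the nearest outside at 19121 bp, again from ASF1B, with a fold of 7.93.

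**Figure D2:**
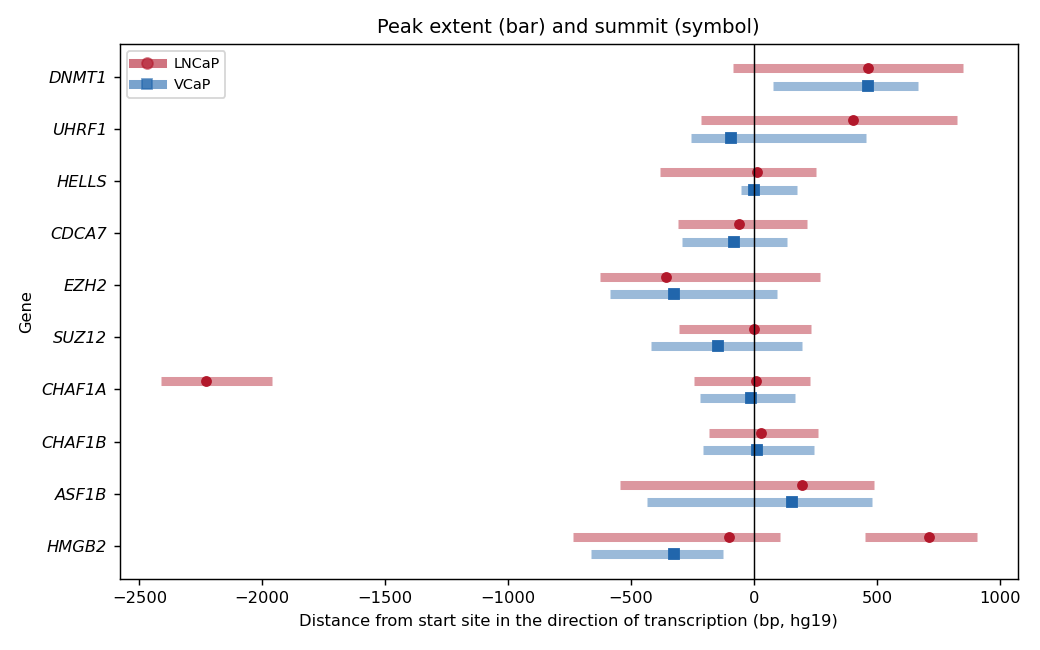
Peak extent (bars) and summit (symbols) at each of the 10 genes, as distance from the hg19 start site in the direction of transcription (bp), for LNCaP (circles) and VCaP (squares). All best summits lie within 500 bp of the start, and LNCaP has second peaks at CHAF1A, 2227 bp before the start, and HMGB2, 712 bp behind it.

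The peaks were also broad for their lists. Their median length was 741 bp in LNCaP, where all peaks had a median of 395 bp, and 567 bp in VCaP, against 313 bp over the list. In LNCaP all 10 were longer than the list median, and in VCaP 9 were. HELLS, with 229 bp in VCaP, was the exception. At 8 of the 10 genes the LNCaP peak was the longer, and at SUZ12 and CHAF1B the VCaP peak was. Over all peaks the median was also longer in LNCaP, with 395 bp against 313 bp in VCaP. The share of all overlapping pairs with the longer peak in LNCaP was not computed.

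Summits of the lines lay close together at most genes. They were within 200 bp at 8 of 10 genes, and 82.5% of all overlapping pairs were, so that this share is near the background. The median distance was 27 bp over these genes and 73.5 bp over all 6692 pairs. UHRF1, at 498 bp, and HMGB2, at 227 bp, lay further apart.

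The ratio of fold enrichment between the lines was close to that of all overlapping peaks. It was above 1, with the higher fold in LNCaP, at 9 of 10 genes, against 80.8% of all pairs. The median ratio of LNCaP over VCaP was 1.32 over the 10 genes and 1.32 over all pairs (quartiles 1.06 and 1.62). Within the set the ratio ran from 0.838 at DNMT1 and 1.07 at CDCA7 to 1.71 at CHAF1A, 1.83 at UHRF1 and 2.001 at HELLS. The ratios in between were 1.19 at EZH2, 1.24 at ASF1B, 1.27 at HMGB2, 1.37 at CHAF1B and 1.47 at SUZ12.

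**Figure D3:**
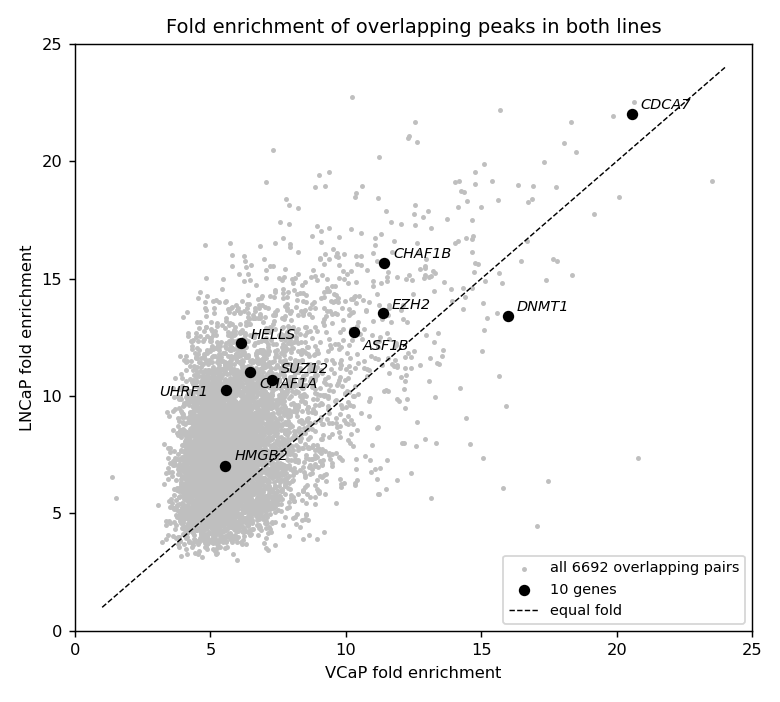
Fold enrichment in LNCaP (vertical axis) against VCaP (horizontal axis) at the 10 genes (black) and at all 6692 overlapping pairs of peaks (grey); the dashed line marks equal fold. Of the 10 genes, 9 lie above the line, and DNMT1, at 13.4 in LNCaP and 16.0 in VCaP, lies below it.

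Scaled to library size, pileup was higher in LNCaP at all 10 genes. The ratio of pileup per 1000000 tags had a median of 3.82, against 3.35 over all pairs (quartiles 2.51 and 4.37). It was lowest at HMGB2, with 2.37 (exact 95% interval 1.30 to 4.30), and at SUZ12, with 2.45 (1.42 to 4.23). UHRF1 had the highest, with 9.27 (4.84 to 19.2). HELLS followed with 6.74 (3.50 to 13.8) and CHAF1A with 6.51 (3.84 to 11.5). ASF1B, with 4.61, EZH2, with 4.01, and DNMT1, with 3.64, also lay above the median of all pairs. CDCA7, with 2.86, and CHAF1B, with 2.66, lay below it, as did SUZ12 and HMGB2. Thus every chromosome 19 gene of the set lay above that median, and elsewhere only HELLS and EZH2 did. At UHRF1, HELLS and CHAF1A the interval lay above the median of all pairs, as it did for 3.96% of all pairs. At the other 7 genes it held that median. It lay below the median at 0 of the 10 genes and for 5.57% of all pairs. Intervals narrow with more tags, and the 10 genes had a median pileup of 51 tags in LNCaP and 33.5 in VCaP, against 13 over each list. UHRF1, HELLS and CHAF1A had the lowest VCaP pileups of the set, with 12, 13 and 20 tags. Their high ratios thus rest on few VCaP tags, and at UHRF1 the summits compared were 498 bp apart. The intervals cover counting error only, the modelled fragment lengths that set the pileup were 241 bp in LNCaP and 225 bp in VCaP, and each summit is the highest point of its peak.

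**Figure D4:**
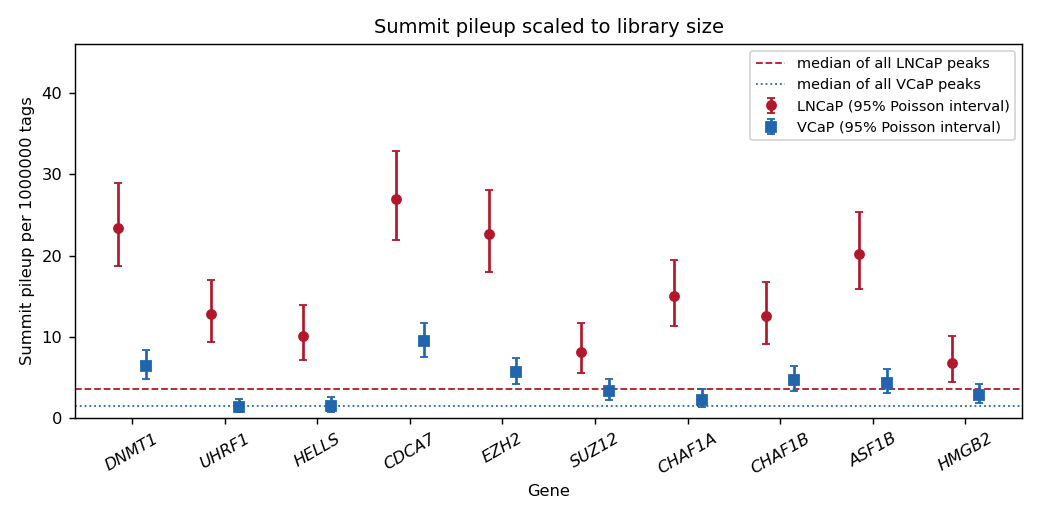
Summit pileup per 1000000 tags (vertical axis) at the 10 genes in LNCaP (circles) and VCaP (squares), with exact 95% Poisson intervals; dashed and dotted lines mark the medians of all peaks. LNCaP lies above VCaP at every gene, and the median of all LNCaP peaks also lies above that of VCaP. UHRF1 and HELLS in VCaP lie close to the median of their list.

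The tags around these peaks differed between the lines as well. The background window of 10000 bp, which includes the peak's own tags, held a median of 150 tags over the 10 genes in LNCaP and 121.5 in VCaP, against medians of 51 over all LNCaP peaks and 68 over all VCaP peaks. Per 1000000 tags the ratio of LNCaP over VCaP had a median of 3.50 and ran from 1.35 at SUZ12 to 6.14 at UHRF1. Over all pairs the median was 2.37 (quartiles 1.67 and 3.22), and over the pairs on chromosome 19 it was 2.92. The chromosome 19 genes had the highest ratios: UHRF1, then DNMT1 with 4.73, CHAF1A with 4.00 and ASF1B with 3.88. Elsewhere the ratio was 3.61 at HELLS, 3.39 at EZH2 and 2.58 at CDCA7. CHAF1B, with 1.65, HMGB2, with 1.62, and SUZ12 lay below the median of all pairs. Both lines are aneuploid, and DNA copy number and Rb binding cannot be told apart in these windows without input chromatin.

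DNMT1, UHRF1, CHAF1A and ASF1B lie on chromosome 19. Their median fold was 11.9 in LNCaP and 8.38 in VCaP, and the other 6 genes had medians of 12.9 and 9.32. Over all chromosome 19 peaks the medians were 5.88 in LNCaP and 5.72 in VCaP, and 5.09% of 1160 LNCaP peaks and 4.44% of 630 VCaP peaks there reached a fold of 10. All 4 genes did in LNCaP, and DNMT1 and ASF1B did in VCaP. The ratio of LNCaP over VCaP fold had a median of 1.11 over the 515 pairs on chromosome 19. UHRF1, with 1.83, CHAF1A, with 1.71, and ASF1B, with 1.24, lay above it, and DNMT1, with 0.838, below.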

How the data were processed

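Rb ChIP-seq peak lists of LNCaP and VCaP, 1 library each, were used, with lines taken from the cell line labels. Peaks were called per library at a q-value limit of 0.05, with 1 tag kept per position and no control library, per the file headers, which name MACS version 2.1.0.20140616. The build hg19 comes from the submitters' processing notes; the aligner is not given in the sources used here. The deposited pileup is an unscaled coverage signal. The deposited fold enrichment is a ratio of pileup plus 1 to local background plus 1, from which the tags in the background window were computed back. The deposited −log10 q served as a filter. The deposited lengths and positions are in bp. Ranks and filters stayed within a list; fold enrichment and scaled pileup were also set side by side between the lines, as ratios without a test. The summit files repeated the peak tables in all 21994 LNCaP and 9423 VCaP rows.

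The 10 genes, their start sites and the word lists were chosen with earlier results of these data known. All 10 are named; promoters were shown for the 4 with the best worse rank. No hg19 annotation was used, so that other genes of these pathways were not analysed here, and exons and introns were not assigned. Poisson and conditional binomial intervals (exact, 95%) cover counting error only. Overlap needed 1 bp, and the partner of highest fold was taken. Pileup was scaled to 1000000 tags. Python 3.11.15 with pandas 2.3.3, scipy 1.17.1 and matplotlib 3.10.9 was used, and the matching was tested on simulated data. Alternatives were other windows, stricter limits, other overlap rules, the nearest peak and pileup; leaving out chromosome 19 was chosen after seeing the data.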

Additional observations from a re-analysis of the deposited data

How the results depend on the processing

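The count of genes with a peak was within 1.5 times its value under every window from 500 bp to 5 kb, at −log10 q or fold enrichment of at least 5, and under the other overlap rules; the lowest counts were 9 with overlap of at least 50% and 8 with summits within 200 bp. With a window of 1 kb, the peak nearest the start or −log10 q of at least 5, the median folds, their ratio and the counts at a fold of at least 10 did not change. They could not, as these settings kept the same peak for every gene. The farthest best summit was 462 bp from its start. The weakest VCaP peaks just passed the limits of 5, with −log10 q of 5.11 at UHRF1 and a fold of 5.54 at HMGB2. Without the members on chromosome 19, the median fold was 12.9 in LNCaP and 9.32 in VCaP. By summit pileup in place of fold, the median share of the list at or above these genes was 0.928% in LNCaP and 4.86% in VCaP, against 2.33% and 8.40% by fold. With pileup per 1000000 tags, the median ratio of LNCaP over VCaP was 3.82 in place of 1.32, and that of DNMT1 was 3.64 in place of 0.838. The cause was not tested. No paired analysis was possible because each line has 1 library and no test was made. Without replicates, a control or an hg19 annotation, the spread between cultures, unspecific signal and the share of all promoters with a peak are not known.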
